A study of Homo sapiens with 8 samples.

Results

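The genes described here are 10 genes of the YAP/TEAD pathway, which responds to how densely cells are grown. They were chosen by name, with earlier results of these data known, and not by a threshold on their values. The genes are YAP1, WWTR1, TEAD1, CCN1, CCN2, ANKRD1, AXL, AMOTL2, AJUBA and LATS2. They are 10 of the 58302 gene identifiers in the count table. RNA sequencing measured them in the human colorectal cancer line DLD1, in cells labelled as overexpressing TRMT6/TRMT61A (OE-WT) and in control cells (CTRL). The series' design text can also be read as overexpression of each gene in its own cells, but both genes were higher in each OE-WT library. TRMT6 and TRMT61A form the enzyme that places the methyl mark m1A on tRNA. Per the paper's methods the wild-type genes were carried stably on a lentiviral pCDH plasmid, and the control was the vector. Whether each line was 1 clone or a pool is not given in the sources used here, nor is the density of the cultures at harvest. Each group had 2 libraries, each sequenced in 2 lanes that the table does not separate, and the paper's methods give another number of replicates. In both groups, per the labels, cells were washed with cycloheximide, an inhibitor of translation, before lysis.

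The Hippo pathway restrains growth when cells touch each other. Its kinases, which include LATS2, phosphorylate the coactivators YAP (YAP1) and TAZ (WWTR1) and so keep them out of the nucleus. In sparse or stretched cells the coactivators enter the nucleus, bind TEAD transcription factors such as TEAD1 and raise target genes. CCN1 and CCN2 encode secreted matricellular proteins, ANKRD1 a stress-responsive ankyrin repeat protein and AXL a receptor tyrosine kinase, and all of them are widely used readouts of YAP/TEAD activity. AMOTL2 and LATS2 are targets that act back on YAP as inhibitors, and AJUBA is a LIM protein that binds LATS kinases. CCN1 and CCN2 are also immediate early genes, which respond to serum and to stress of the cell within a short time.

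TEAD factors bind DNA at the letters CATTCC, read as GGAATG on the other strand. RefSeq's table of promoters (GRCh38.p14) held 12 start sites for 8 of the 10 genes; it was searched on both strands over the 250 bases before each start, and no entry was matched for CCN1 and TEAD1. Among the 12 windows, 6 held the letters at least 1 time, 1 window for each of YAP1, CCN2, ANKRD1, AMOTL2, AJUBA and AXL. Of all 35116 promoter windows of the same length 11.9% held at least 1 match, 0.940% at least 2 and 0.0826% at least 3. CCN2 had 3 matches, which begin 169, 104 and 95 bases before its start, and ANKRD1 had 2, which begin 220 and 128 bases before its start. Both windows are shown because they hold the most matches among the 12 windows. The log2 fold changes of the transcripts had opposite signs, but that of ANKRD1 did not pass the test used below. The call of CCN2 was lost in 6 of 11 alternatives. Capitals mark the matches, on the minus strand, 5′ to 3′. The windows lie at chr6:131951373-131951622 for CCN2 and chr10:90921088-90921337 for ANKRD1.
CCN2: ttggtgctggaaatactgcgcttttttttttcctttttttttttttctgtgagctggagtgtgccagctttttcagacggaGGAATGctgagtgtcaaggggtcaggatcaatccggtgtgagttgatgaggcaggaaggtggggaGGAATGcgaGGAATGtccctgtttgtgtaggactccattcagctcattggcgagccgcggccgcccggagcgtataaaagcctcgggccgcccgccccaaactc
ANKRD1: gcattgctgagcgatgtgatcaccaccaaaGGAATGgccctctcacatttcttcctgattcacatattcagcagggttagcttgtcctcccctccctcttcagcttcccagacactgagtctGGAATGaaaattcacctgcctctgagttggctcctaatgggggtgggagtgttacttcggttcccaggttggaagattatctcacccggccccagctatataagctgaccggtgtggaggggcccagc
ANKRD1 also held 1 match to TGANTCA, the letters used here for AP-1, in which N is any base. It read TGATTCA. Such a match was in 6.57% of all windows and in none of the other windows of the 10 genes. The CArG box of the serum response factor SRF was in 1.16% of all windows and in none of the 12. These matches describe the letters of the windows and not the binding of a factor.

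The counts on genes summed to between 10327498 and 12379671 per library. Of all identifiers, 14133 had enough counts to be tested, among them all 10 genes. Counts were divided by TMM-adjusted library size (CPM, the usual per-library scale of counts, in which genes of a library sum to about the same total), and OE-WT was compared with CTRL by the quasi-likelihood test of edgeR, with p-values adjusted after Benjamini and Hochberg over those 14133 genes. TRMT6 had 210.7 and 180.9 CPM in OE-WT against 52.6 and 55.4 CPM in CTRL replicates, and TRMT61A had 137.5 and 130.4 against 58.9 and 56.8 CPM, so both were higher in the libraries labelled as overexpressing them. Of 12 markers of colon epithelium, 11 passed the filter, but their levels differed widely. KRT8, KRT18 and EPCAM were at 803.7, 1140 and 205.7 CPM per kilobase of exon. VIL1 and LGALS4 passed at only 0.547 and 0.480 CPM per kilobase, and CDX1 had 1 count in all. Of 8 fibroblast markers COL1A2, COL3A1, DCN and PDGFRA were at 0 counts in all 4 libraries, while COL1A1 had between 18 and 22 counts and PDGFRB between 7 and 12. The endothelial genes CDH5 and KDR and the T cell gene CD3E were also at 0, and the myeloid gene CD14 had between 14 and 31 counts. The design text has each group cultured in duplicate and gives no more on how far the cultures were independent, so p-values measure the spread between these libraries only.

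Of the 10 genes, 5 fell with OE-WT at an adjusted p under 0.05 and 0 rose (edgeR's quasi-likelihood test), against 11.6% of all genes tested that fell and 9.44% that rose. The 5 were WWTR1, AXL, CCN1, LATS2 and CCN2. Earlier results of these data were known when the 10 genes were chosen, so the shares here describe them only. At an unadjusted p below 0.05, 8 of the 10 passed, 3 of them higher, where 33.8% of all genes tested passed and 16.4% passed with a higher level in OE-WT cells. No member passed the paper's pair of thresholds, a log2 fold change beyond 1 in size with an unadjusted p under 0.05, which 3.15% of all genes tested passed in either direction and 2.25% in the lower direction. For every gene the libraries of the groups did not overlap, with 6 genes lower and 4 higher in OE-WT cells; of all genes tested 30.2% did not overlap and were lower and 29.9% did not overlap and were higher, so a lack of overlap is common among all genes. The median log2 fold change was -0.15 over the 10 genes and 0.01 over all genes tested. CCN1 was the 1 gene of the 5 that stayed below an adjusted p of 0.05 in each of the 11 alternative settings. With DESeq2's Wald test 1 of the 10 genes fell, where 854 of the 11941 genes with an adjusted p fell. With 1 library left out some of the 5 calls were lost. The log2 fold changes of the 5 genes stayed below 0 there, and that of CCN2 reached -0.10. Without OE-WT replicate 2, a fit with 1 OE-WT library, ANKRD1 and TEAD1 passed the threshold as higher. Their log2 fold changes there were 0.65 and 0.38.

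**Figure D1:**
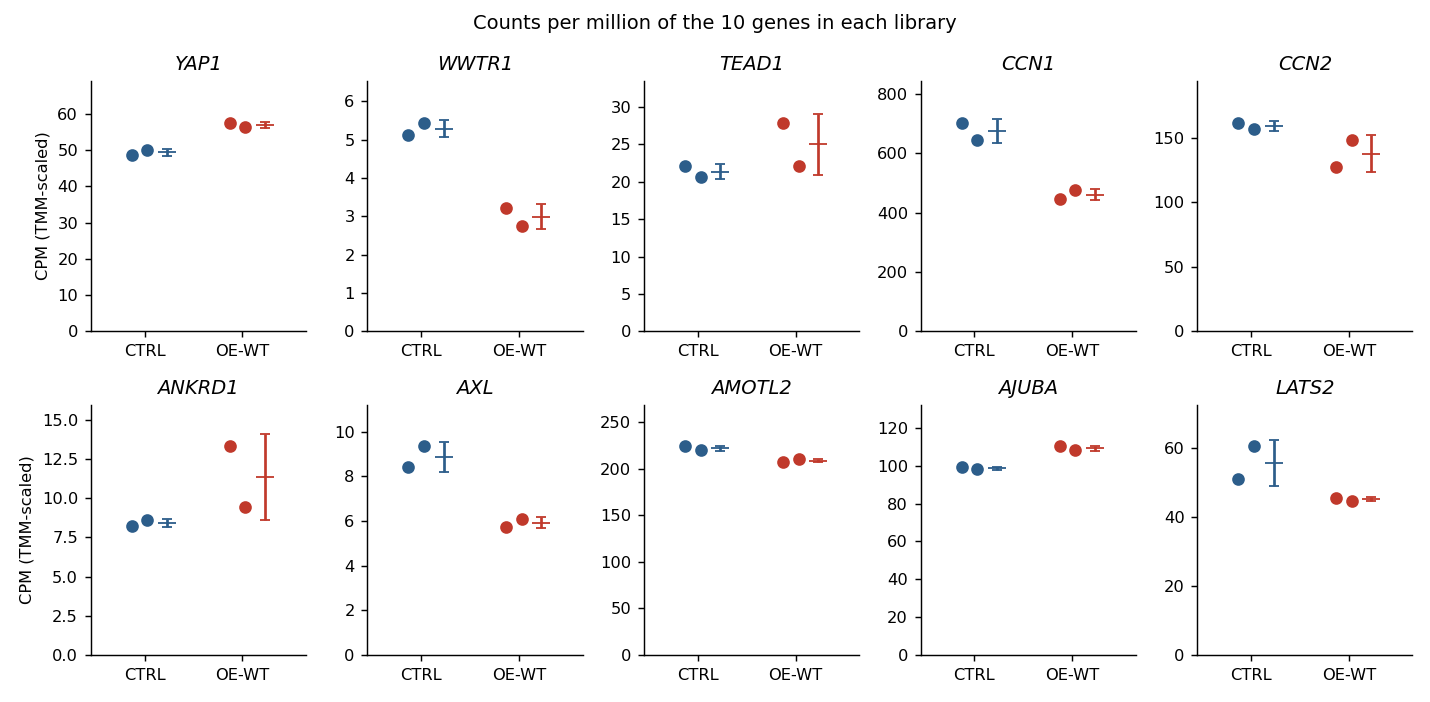
TMM-scaled CPM of each gene in each library, with an own linear axis from 0 for each gene; points are the 2 libraries of a group and the bar beside them is the mean with its SD. CCN1 sits at 447.3 and 475.0 CPM in OE-WT and at 703.5 and 646.8 CPM in CTRL libraries, while the OE-WT libraries of ANKRD1 and TEAD1 lie far apart.

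Of the coactivators WWTR1 fell in OE-WT cells and YAP1 did not pass the test. YAP1 (ENSG00000137693, GRCh38 chr11:102110447-102233424, plus strand) had 57.6 and 56.3 CPM in OE-WT against 48.7 and 50.2 CPM in CTRL replicates. Both OE-WT libraries lay above both CTRL libraries, but the log2 fold change of 0.20 (standard error 0.08) did not pass the threshold (adjusted p = 0.064, edgeR's quasi-likelihood test). Its unadjusted 95% interval ran from 0.04 to 0.36. Over the 11 alternatives the log2 fold change ranged from 0.11, with scaling by library size only, to 0.23. YAP1 shares 628 exon bases with a long noncoding gene of the opposite strand, ENSG00000254422, which had between 107 and 126 counts per library; since the strand setting of the counting is not stated, the reads of both may not be told apart.
WWTR1 (ENSG00000018408, chr3:149517235-149736714, minus strand), which encodes TAZ, had 32 and 28 counts in OE-WT replicates, against 66 and 67 in CTRL replicates. These were 3.22 and 2.75 CPM against 5.13 and 5.44 CPM, and both OE-WT libraries lay far below both CTRL libraries. It fell by 0.82 on the log2 scale (standard error 0.23, adjusted p = 0.015, edgeR's quasi-likelihood test). The call was lost with DESeq2's Wald test (adjusted p = 0.143), without OE-WT replicate 2 (edgeR adjusted p = 0.076) and without CTRL replicate 2 (edgeR adjusted p = 0.055), over a range from 0.0033 to 0.143 in 11 alternatives. WWTR1 also shares 756 exon bases with WWTR1-AS1, on the opposite strand, which had between 5 and 16 counts per library.
The ratio of WWTR1 to YAP1 counts within a library needs no scaling between libraries. It was 0.0559 and 0.0489 in OE-WT against 0.105 and 0.108 in CTRL replicates, so the 2 groups stood apart. With 2 libraries a group, an exact permutation test, two-sided, gave p = 0.333, the smallest it can give, so none of the 6 count ratios compared in this way can pass a threshold of 0.05.

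TEAD1 (ENSG00000187079, chr11:12674421-12944737, plus strand) had 27.9 and 22.1 CPM in OE-WT against 22.1 and 20.6 CPM in CTRL replicates. OE-WT replicate 2 lay above CTRL replicate 1 by a margin smaller than the rounding, and the log2 fold change of 0.23 (standard error 0.12) had an adjusted p of 0.185 (edgeR's quasi-likelihood test). Without OE-WT replicate 2 it was 0.38 with an edgeR adjusted p of 0.035, the lowest of a range up to 0.863 over 11 alternatives. Among its paralogs TEAD4 rose by 0.36 on the log2 scale (standard error 0.11, adjusted p = 0.024, edgeR's quasi-likelihood test). TEAD4 had 10.3 ± 0.284 CPM per kilobase of exon in OE-WT and 8.01 ± 0.0261 in CTRL cells (SD, n = 2 each), the highest level of the TEAD genes. TEAD2 and TEAD3 had log2 fold changes of -0.26 and -0.20 that did not pass the threshold. The cofactors VGLL3 and VGLL4, which bind TEAD factors in place of YAP, had log2 fold changes of 0.21 and -0.11 without passing it. VGLL2 was at 0 in every library, and VGLL1 had 0 counts in OE-WT replicates, against 2 and 1 in CTRL replicates, at or under the 3 counts that a count of 0 allows (between 0.233 and 0.302 CPM, counting error only). Of the 10 TEAD factors and cofactors, 8 were tested, 1 rose and 1, WWTR1, fell, which is 12.5% in each direction against 9.44% higher and 11.6% lower among all genes tested. The rise of TEAD4 depended on the setting: 0 TEAD factors and cofactors rose with DESeq2's Wald test, with scaling by library size only, with no filter beyond 1 count, without CTRL replicate 1 and without CTRL replicate 2, and without OE-WT replicate 2 the 1 that rose was TEAD1.

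CCN1 had the smallest p of the 10 genes. CCN1 (ENSG00000142871, chr1:85580761-85584589, plus strand) had 4440 and 4833 counts in OE-WT replicates, against 9050 and 7968 in CTRL replicates. In CPM these were 447.3 and 475.0 against 703.5 and 646.8. It fell by 31.7%, or by 0.55 on the log2 scale (standard error 0.07, adjusted p = 5.5e-06, edgeR's quasi-likelihood test), and its p ranked 167 among the 14133 genes tested. Over the 11 alternatives the log2 fold change ranged from -0.64 to -0.49.
CCN2 (ENSG00000118523, chr6:131948176-131951372, minus strand), its relative with the 3 matches printed above, had 127.4 and 148.0 CPM in OE-WT against 161.7 and 156.7 CPM in CTRL replicates. The OE-WT libraries of CCN2 differed more from each other than the CTRL libraries did. It fell by 0.21 on the log2 scale (standard error 0.07, adjusted p = 0.045, edgeR's quasi-likelihood test), at the edge of the threshold. The call was lost in 6 of 11 alternatives, with adjusted p-values from 0.0015 to 0.501, the highest without OE-WT replicate 1 (edgeR), where the log2 fold change was -0.10. Without OE-WT replicate 2 it was -0.33. Without CTRL replicate 1 the edgeR adjusted p was 0.161 and with the replicate number as a block it was 0.077, the call being lost there too.
CCN1 counts exceeded CCN2 counts 3.51 and 3.21 times in the OE-WT libraries and 4.35 and 4.13 times in the CTRL libraries. These ratios were lower in both OE-WT libraries (p = 0.333, exact permutation test, two-sided). That is the smallest p this test can give here, so it cannot decide whether the groups differ. The ratio of CCN1 to YAP1 counts was 7.76 and 8.43 in OE-WT against 14.4 and 12.9 in CTRL replicates. The ratio of TEAD1 to TEAD4 counts overlapped, at 1.21 and 0.926 in OE-WT against 1.21 and 1.13 in CTRL replicates.
ANKRD1 (ENSG00000148677, chr10:90912096-90921087, minus strand) did not pass the test, and its log2 fold change was positive. ANKRD1 counts were 132 and 96 in OE-WT replicates, against 106 in each CTRL replicate, or 13.3 and 9.43 against 8.24 and 8.60 CPM. The log2 fold change of 0.43 (standard error 0.17) did not pass the threshold (adjusted p = 0.085, edgeR's quasi-likelihood test), and OE-WT replicate 1 was the higher library. Without it the log2 fold change was 0.17, and without OE-WT replicate 2 it was 0.65 with an edgeR adjusted p of 0.0056, in a range up to 0.671 over 11 alternatives.
AXL (ENSG00000167601, chr19:41219223-41261766, plus strand) had 57 and 62 counts in OE-WT replicates, against 108 and 115 in CTRL replicates, which were 5.74 and 6.09 against 8.40 and 9.34 CPM. Both OE-WT libraries lay well below both CTRL libraries. It fell by 33.1%, or by 0.58 on the log2 scale (standard error 0.18, adjusted p = 0.024, edgeR's quasi-likelihood test). The call was lost with DESeq2's Wald test (adjusted p = 0.181), without OE-WT replicate 1 (edgeR adjusted p = 0.102) and without CTRL replicate 2 (edgeR adjusted p = 0.126), in a range from 0.0049 to 0.181.

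**Figure D2:**
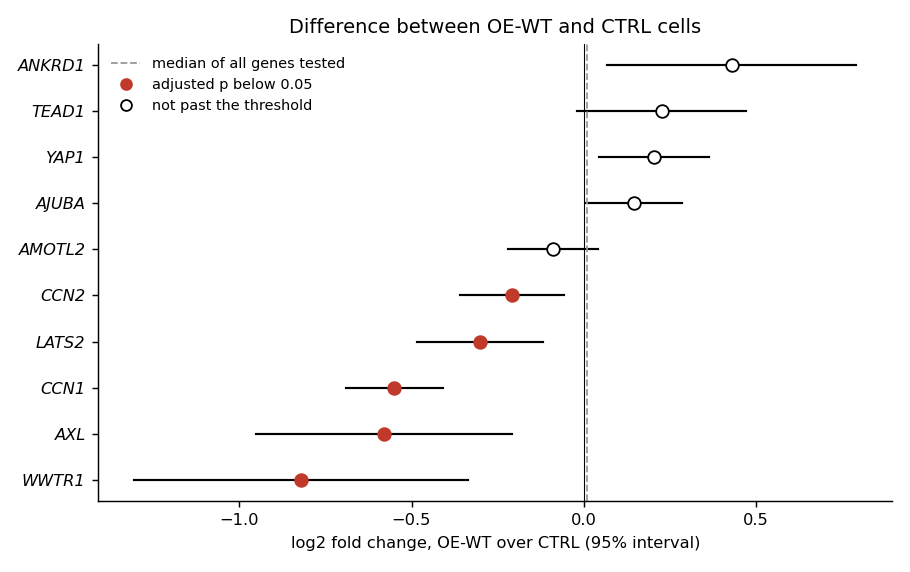
Log2 fold change of each gene, OE-WT over CTRL, with its unadjusted 95% interval from edgeR's quasi-likelihood fit; filled points have an adjusted p below 0.05 and the dashed line is the median of all genes tested. WWTR1, AXL, CCN1, LATS2 and CCN2 lie to the left of 0 with filled points, AMOTL2 lies just to the left with an open point, and AJUBA, YAP1, TEAD1 and ANKRD1 lie to the right with open points.

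Of the targets that act back on YAP, LATS2 fell and AMOTL2 did not pass the test. AJUBA, which binds LATS kinases, did not pass it either. LATS2 (ENSG00000150457, chr13:20973036-21061586, minus strand), a kinase that phosphorylates YAP, had 45.5 and 44.7 CPM in OE-WT against 50.9 and 60.4 CPM in CTRL replicates. The OE-WT libraries were close to each other and the CTRL libraries were not. It fell by 0.30 on the log2 scale (standard error 0.09, adjusted p = 0.017, edgeR's quasi-likelihood test). Without CTRL replicate 2 the log2 fold change was -0.17 (edgeR adjusted p = 0.266) and with DESeq2's Wald test the adjusted p was 0.125, in a range from 0.00096 to 0.266. The ratio of LATS2 to LATS1 counts was 9.62 and 6.32 in OE-WT against 8.09 and 8 in CTRL replicates, so here the groups overlapped. The ratio of AMOTL2 to AMOT counts, another angiomotin, was 21.9 and 33.5 in OE-WT against 35.6 and 40.5 in CTRL replicates.
AMOTL2 (ENSG00000114019, chr3:134355347-134375479, minus strand), an angiomotin that holds YAP at junctions, had 207.8 and 210.4 CPM in OE-WT against 224.3 and 220.5 CPM in CTRL replicates. The libraries of a group lay close together, and the difference was small, at -0.09 on the log2 scale (standard error 0.06, adjusted p = 0.347, edgeR's quasi-likelihood test) and a 95% interval from -0.22 to 0.04. It passed the threshold in 0 of the 11 alternatives.
AJUBA (ENSG00000129474, chr14:22971177-22982551, minus strand) had 110.2 and 108.3 CPM in OE-WT against 99.2 and 98.1 CPM in CTRL replicates. The groups stood apart, with a log2 fold change of 0.15 (standard error 0.07) that did not pass the threshold after adjustment (adjusted p = 0.126, edgeR's quasi-likelihood test). Over the 11 alternatives the log2 fold change ranged from 0.055, with scaling by library size only, to 0.18. YAP1, AMOTL2 and AJUBA were the 3 genes that passed it in none of the 12 settings.

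**Figure D3:**
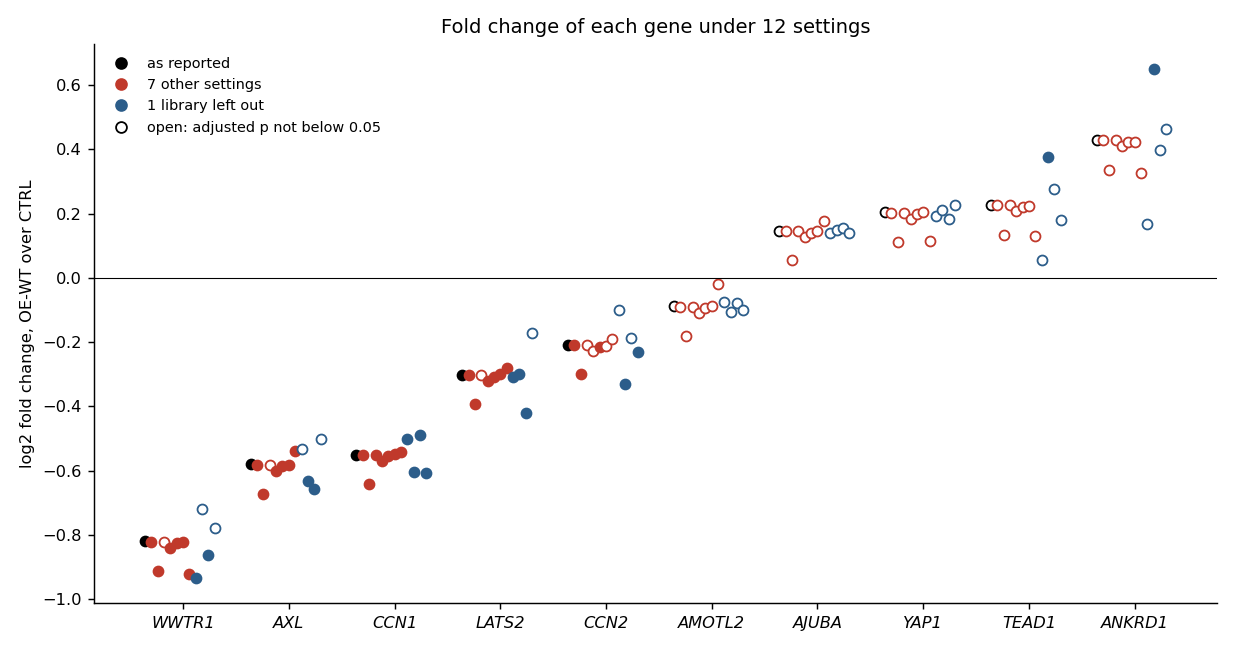
Log2 fold change of each gene, OE-WT over CTRL, in the fit as reported (black), in 7 other settings of scaling, filter, test, block or GC content (red) and with 1 library left out (blue); filled points have an adjusted p below 0.05. The points of CCN1 are all filled, between -0.64 and -0.49, and no gene changes sign.

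Levels of different genes were compared per length, as CPM per kilobase of the union of annotated exons. CCN1 was highest, with 124.7 ± 5.29 in OE-WT and 182.6 ± 10.8 in controls (SD, n = 2 each), a level above 97.6% of the genes tested. CCN2 followed with 58.9 ± 6.22 and 68.1 ± 1.52, and AMOTL2 with 32.3 ± 0.282 and 34.3 ± 0.413. AJUBA, LATS2, YAP1, ANKRD1, TEAD1, AXL and WWTR1 came next in that order. The transcripts of CCN1 and CCN2 thus stood well above those of YAP1, TEAD1 and WWTR1. WWTR1, at 0.358 ± 0.0400 and 0.633 ± 0.0261, was above 14.6% of the genes tested. Neighbours in this order did not overlap in any library, except LATS2 and YAP1, which also changed places when canonical transcript lengths were used. LATS2 had 8.11 and 7.97 CPM per kilobase in OE-WT libraries, below the 9.13 and 8.92 of YAP1, and 9.07 and 10.8 in CTRL libraries, above the 7.72 and 7.95 of YAP1. LATS2 thus stood above YAP1 in the CTRL libraries alone.

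**Figure D4:**
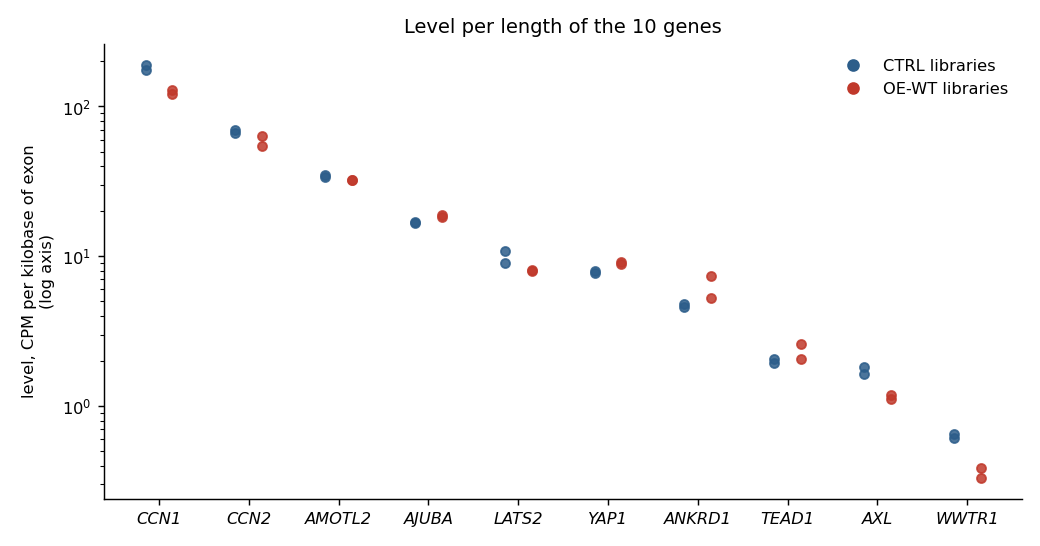
Level of each gene in CPM per kilobase of exon, on a log axis, in the CTRL libraries (blue) and the OE-WT libraries (red), from the highest mean level to the lowest. CCN1 lies between 121.0 and 190.2 and WWTR1 between 0.329 and 0.651, and LATS2 and YAP1 change places between the groups.

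The wider pathway was read from lists taken from general knowledge. These lists too were chosen with earlier results of these data known, so their shares are descriptive. Of a set of 22 YAP/TAZ target genes often used across cancers, 20 were tested; 7 fell and 1 rose at an adjusted p below 0.05 (edgeR's quasi-likelihood test), and 12 did not pass. This is 35% lower and 5% higher, against 11.6% and 9.44% of all genes tested. Its median log2 fold change was -0.08, and 6 of its genes are among the 10 described above. Of the other 14 tested, 3 fell and 1 rose, with a median of -0.03. The 3 were CRIM1, a membrane protein that binds bone morphogenetic proteins, with a log2 fold change of -0.41 (standard error 0.07), ARHGEF17, with -0.50 (standard error 0.09), and F3, the tissue factor of coagulation, with -0.40 (standard error 0.09). PTPN14, a phosphatase that binds YAP and restrains it, rose with 53.8 ± 8.40 CPM in OE-WT and 33.0 ± 5.95 CPM in controls (SD, n = 2 each), which is 0.71 on the log2 scale (standard error 0.11). FOXF2 was at 0 in every library and RBMS3 had 1 count in each of 2 libraries, so neither was tested. Without CTRL replicate 2, 4 genes of the signature fell, and with DESeq2's Wald test also 4.
Of 25 Hippo kinases and adaptors, all tested, 3 fell and 2 rose, or 12% and 8% against 11.6% and 9.44% of all genes tested, and the median log2 fold change was -0.01. TAOK2, a kinase upstream of the Hippo kinases, fell by 0.45 on the log2 scale (standard error 0.09), and RASSF1, a scaffold of these kinases, fell by 0.37 (standard error 0.13); LATS2 is the third. STK4, the Hippo kinase MST1, rose with a log2 fold change of 0.51 (standard error 0.14), and PTPN14 is the other gene that rose. Without CTRL replicate 2, 1 gene of this list fell, and without OE-WT replicate 1 or without CTRL replicate 1, 1 gene rose. DESeq2's Wald test called 1 gene in each direction.
The transcription factor SRF and its MRTF cofactors, which sense actin, share targets such as CCN1 and CCN2 with YAP. Of 22 genes of that program, called cytoskeletal genes here though SRF, MRTFA and MRTFB are among them, 21 were tested. Of these, 4 rose (19.0%, against 9.44% of all genes tested) and 2 fell (9.52%, against 11.6%), with a median log2 fold change of -0.07. The 4 that rose were TPM1 (0.76, standard error 0.07), CNN2 (0.33), TAGLN2 (0.33) and ACTB (0.24), and TPM2 (-0.68, standard error 0.18) and ACTN1 (-0.22) fell, all on the log2 scale. TPM1 and TPM2, which encode tropomyosins that coat actin filaments, thus moved in opposite directions. The 2 decreases depended on the setting: 1 gene fell without OE-WT replicate 1, without CTRL replicate 1 and without CTRL replicate 2, and 0 fell with DESeq2's Wald test.

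**Figure D5:**
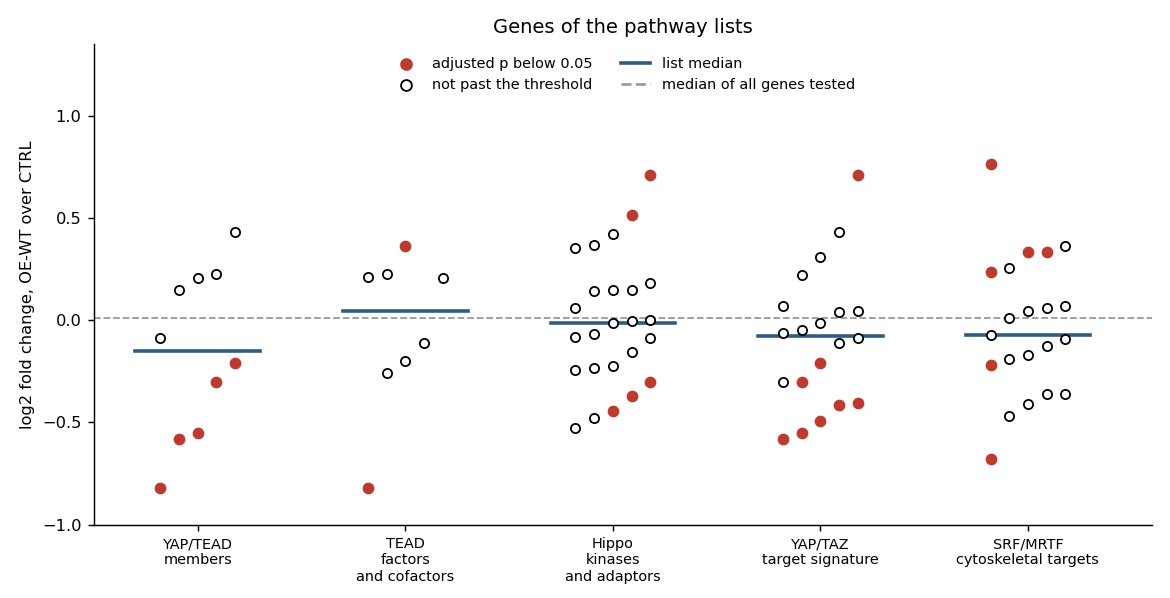
Log2 fold change, OE-WT over CTRL, of the tested genes of each list, with filled points for an adjusted p below 0.05 (edgeR's quasi-likelihood test), blue bars for the list medians and a dashed line for the median of all genes tested; some genes stand in several lists. The target signature has 7 filled points below 0 and 1, PTPN14, above it, and the medians of the 5 lists lie between -0.15 and 0.05.

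Some markers of colon epithelium also differed between the groups. Of the 11 tested, 5 fell and 2 rose at an adjusted p below 0.05 (edgeR's quasi-likelihood test), where 11.6% of all genes tested fell and 9.44% rose, and 4 did not pass. KRT20, a keratin of differentiated colon cells, fell by 1.52 on the log2 scale, the claudins CLDN4 and CLDN7 fell by 0.68 and 0.44, and E-cadherin (CDH1), which links neighbouring cells, fell by 0.29. KRT19 fell by 0.19 with an adjusted p of 0.049 (edgeR), at the edge of the threshold. KRT8 and KRT18 rose with log2 fold changes of 0.25 and 0.30. EPCAM, CDX2, VIL1 and LGALS4, with log2 fold changes of -0.08, 0.18, 0.55 and 0.20, did not pass, and no alternative setting was run for these markers. The summed level of the whole list was between 13021 and 13490 CPM in OE-WT and between 12265 and 12615 CPM in CTRL libraries. The 8 fibroblast markers summed to between 2.46 and 3.32 CPM in OE-WT and between 2.27 and 2.41 CPM in CTRL libraries, and the 6 leukocyte markers to at most 2.64 CPM in any library. The 5 endothelial markers summed to between 0.786 and 2.33 CPM; VWF, with 5 and 6 counts in OE-WT against 30 and 14 in CTRL replicates, made up most of this. The part of these differences in the values of the YAP/TEAD genes was not tested.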

How the data were processed

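The authors deposited raw counts per gene for 4 libraries of DLD1 cells, 2 OE-WT and 2 CTRL. For these counts the paper names Cutadapt, HISAT2 and HTSeq on GRCh38 after removal of ribosomal RNA, and the submitters' processing notes name HISAT2 2.2.1 and featureCounts 2.0.0, with selection of poly(A) RNA and a stranded kit per the labels. The annotation release and strand setting of the counting are not given in the sources used here. The table had 0 columns beyond the 4 libraries.

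Symbols, coordinates and exon lengths came from GENCODE release 44, which matched 57532 of 58302 identifiers. Low genes were removed with edgeR's group-wise filter (minimum count 10). The comparison used edgeR 4.0.16 in R 4.3.3 with TMM, the quasi-likelihood test and no replicate block. Each standard error was derived from the F statistic and its log2 fold change. On simulated counts of 14133 genes for this comparison, the test recovered 54% of genes changed by a log2 fold change of 0.5. It recovered 76% of those changed by 1, and 5.80% of its calls were false. The simulation changed 100 genes of each size and took the spread of each gene from these same libraries. Its rates may therefore not hold for the real comparison. A common biological coefficient of variation of 5.13% was estimated. Counting intervals and floors cover counting error only. Named genes were the 10 members, TRMT6, TRMT61A, the TEAD and VGLL genes, and up to 6 called genes of each list by smallest p; the epithelial and other markers were fixed beside them. The members and lists were chosen with earlier results of these data known. The alternatives tried were DESeq2 1.42.0, scaling by RLE or by library size alone, other filters, a replicate block, a GC trend removed (lowess, span 0.3), each library left out, and canonical transcript length. With a library left out, 1 group has 1 library, which is assumed to vary like the other group. Figures were drawn with matplotlib 3.10.9 under Python 3.11.15.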

Additional observations from a re-analysis of the deposited data

How the results depend on the processing

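None of the 10 genes changed direction in any of the 11 alternatives. Of 132 values of single genes, TRMT6 and TRMT61A included, 116 kept their side of the threshold, 14 lost a call and 2 gained one. The cause was not tested unless named here. Of the 10 genes, 1 fell with DESeq2, which called 1373 genes in all, 519 higher and 854 lower, against 1334 higher and 1642 lower with edgeR, 1372 of them shared; 288 genes passed the paper's thresholds against 445. DESeq2 gave 0 TEAD factors in either direction, 1 Hippo gene in each, 4 genes of the target signature lower and 0 cytoskeletal genes lower. With library size only, 733 genes were higher, 0 TEAD factors were higher and 4 cytoskeletal genes were lower; the share of higher among all calls then went from 44.8% to 23.0%. When genes with any count were kept (26095 tested), 844 genes were higher, 0 TEAD factors were higher and 738 genes passed the paper's thresholds; when 10 counts were required in each library (13094 tested), 216 passed. With the GC trend removed, 2 genes of the signature were higher and 1 cytoskeletal gene was lower.

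The deviations from the group mean of libraries with the same replicate number correlated at -0.068. This single value cannot show whether cultures with the same number were handled together. With the replicate block 2658 genes were called, 1 cytoskeletal gene was lower and the call of CCN2 was lost (log2 fold change -0.21). With canonical transcript lengths 8 of the 10 genes kept their place in the order by level, and LATS2 and YAP1 changed places.

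With 1 library left out, between 0 and 2 of the 10 genes were called higher and between 2 and 4 lower. The counts ranged from 0 to 1 TEAD factors higher and 0 to 1 lower, from 1 to 3 Hippo genes higher and 1 to 3 lower, from 1 to 2 signature genes higher and 4 to 7 lower, and from 3 to 4 cytoskeletal genes higher and 1 to 2 lower. Over all genes they ranged from 764 to 1231 higher, from 1139 to 1621 lower and from 429 to 570 past the paper's thresholds. WWTR1, AXL and ANKRD1 had at most 132 counts in any library, and their standard errors on the log2 scale were 0.23, 0.18 and 0.17.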
